A study of Arabidopsis thaliana with 60 samples.

Results

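The 10 genes described here make flavonols and anthocyanins or switch on the genes that do, in the aerial tissue of young Arabidopsis thaliana plants. They were taken by gene ID from the 21450 genes listed for the series, and all 10 were listed. The early steps were CHS (AT5G13930), CHI (AT3G55120), F3H (AT3G51240) and F3'H (AT5G07990), with FLS1 (AT5G08640) on the flavonol branch. The late steps were DFR (AT5G42800), LDOX (AT4G22880) and UF3GT (AT5G54060), and the regulators were PAP1 (AT1G56650) and TT8 (AT4G09820). The transcript levels came from poly(A) RNA of 15 plants, 5 in each of 3 groups, harvested 18 days after sowing. Every plant had an ein3-1 mutant mother. Biparental diploids (BD) had a 2n pollen donor carrying pRPS5a::mGAL4-VP16/- and pUAS::BAR-YFP/-, and biparental triploids (BT) a 4n donor with the same transgenes. Triparental triploids (TT) came from double pollination, in which an egg cell is fertilized by sperm of more than 1 father; here TT is only ever this group and TT8 only ever the gene. The RPS5a promoter drives the activator and the UAS construct gives herbicide resistance and YFP, and all plants had been selected on 25 mg/l glufosinate. BT against BD compares ploidy, and TT against BT compares the origin of the extra genome set at equal ploidy. TT against BD differs in both. Other differences come with these. The paper states that TT plants inherit cytoplasm of more than 1 sperm and mostly grow from seeds with equal embryo and endosperm ploidy. Transgene dose per group is not given and may differ.

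Flavonoid synthesis starts from coumaroyl-CoA and malonyl-CoA. Chalcone synthase (CHS) makes the chalcone, chalcone isomerase (CHI) closes the ring, flavanone 3-hydroxylase (F3H) makes dihydroflavonols and flavonoid 3'-hydroxylase (F3'H) adds a hydroxyl group to the B ring. At that point the pathway forks: flavonol synthase (FLS1) makes flavonols, the sunscreen pigments of leaves, while dihydroflavonol reductase (DFR), leucoanthocyanidin dioxygenase (LDOX, also called anthocyanidin synthase) and the glycosyltransferase UF3GT lead to the purple anthocyanins. In Arabidopsis the early genes are mainly under the flavonol MYB factors MYB11, MYB12 and MYB111, and the late genes under a complex of a MYB factor such as PAP1, a bHLH factor such as TT8 and the WD40 protein TTG1.

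Each plant was covered by 19534646 to 30756482 recovered reads, and the 10 genes by 15 reads (TT8 in one plant) to 11548 reads (CHS in another). Leaf genes were abundant, with summed normalized counts of 5 mesophyll markers between 903879 and 2095590 per plant. The 5 seed storage genes looked at were not among the listed genes, and the 2 listed of 5 root markers summed to at most 6.83. The 5 flower organ identity genes looked at were all listed and summed to 94.1 to 424 per plant. Among these, SEP3 varied from 14.0 to 288 between plants. In 4 plants a stretch of the genome stood above the rest: chromosome 4 in BT2 (median log2 deviation of its genes 0.34), chromosome 5 in BT5 (0.30) and the distal part of chromosome 1 in BD4 (0.50), BT3 (0.34) and BT5 (0.24). LDOX and TT8 lie on chromosome 4, and CHS, F3'H, FLS1, DFR and UF3GT on chromosome 5, so results that rest on these plants are given also without them.

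The stretch of 250 bases before the start of each gene was read from the RefSeq TAIR10.1 genome, to show the DNA that the MYB and bHLH factors above would meet. The 5 regions printed belong to CHS and FLS1, the early pair with the highest Pearson r between plants, and to the late genes. They run 5′ to 3′ towards the gene start, and capitals mark an ACGT core, the G-box CACGTG that contains it, or the MYB element ANCNNCC described for targets of the MYB-bHLH complex, on either strand.
CHS (chr5:4488226-4488475, plus strand): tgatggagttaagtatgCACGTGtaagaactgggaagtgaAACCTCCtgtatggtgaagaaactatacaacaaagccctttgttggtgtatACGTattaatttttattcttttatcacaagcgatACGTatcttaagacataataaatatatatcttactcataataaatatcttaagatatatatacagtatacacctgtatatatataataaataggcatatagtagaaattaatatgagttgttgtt
FLS1 (chr5:2803583-2803832, plus strand): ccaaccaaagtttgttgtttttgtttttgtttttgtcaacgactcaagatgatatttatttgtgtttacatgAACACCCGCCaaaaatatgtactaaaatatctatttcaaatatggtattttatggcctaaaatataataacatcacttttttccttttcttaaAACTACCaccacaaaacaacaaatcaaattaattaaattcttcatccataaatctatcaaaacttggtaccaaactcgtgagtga
DFR (chr5:17166033-17166282, minus strand): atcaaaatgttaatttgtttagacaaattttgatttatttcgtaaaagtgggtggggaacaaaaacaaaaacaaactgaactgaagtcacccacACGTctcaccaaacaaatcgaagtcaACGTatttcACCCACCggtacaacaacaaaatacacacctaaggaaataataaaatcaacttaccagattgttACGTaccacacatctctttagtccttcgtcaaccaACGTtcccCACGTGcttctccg
LDOX (chr4:12006210-12006459, minus strand): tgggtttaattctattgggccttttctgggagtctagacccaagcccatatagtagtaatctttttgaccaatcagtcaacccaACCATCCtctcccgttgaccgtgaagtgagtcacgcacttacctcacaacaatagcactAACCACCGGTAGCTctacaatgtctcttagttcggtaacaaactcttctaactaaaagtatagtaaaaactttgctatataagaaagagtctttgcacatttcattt
UF3GT (chr5:21938397-21938646, minus strand): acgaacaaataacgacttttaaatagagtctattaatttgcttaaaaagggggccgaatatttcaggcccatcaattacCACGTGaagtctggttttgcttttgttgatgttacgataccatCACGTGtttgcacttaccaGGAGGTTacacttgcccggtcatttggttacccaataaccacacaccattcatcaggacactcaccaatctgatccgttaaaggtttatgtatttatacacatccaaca
A G-box stood in 4 of the 10 regions, CHS, F3H, DFR and UF3GT, against 6.49% of the 27443 regions of the same length before protein-coding genes. The CHS one ended 228 bases before the gene start, the DFR one 9 bases before it, and UF3GT had 2, ending 166 and 123 bases before it. FLS1 and LDOX held no ACGT core and no E-box (CANNTG, of which the G-box is a special case). By Pearson r between plants, the highest early pair was CHS with FLS1 (0.89) and the highest late pair DFR with LDOX (0.85). Each of these had 1 region with a G-box and 1 without. In the pairs CHS with F3H (0.84) and DFR with UF3GT (0.83), both regions had a G-box. Whether a shared G-box goes with likeness between plants was not tested. The ACGT core was found in 5 of 10 regions (44.1% of all regions), the E-box in 7 (55.3%) and ANCNNCC in 9 (48.8%), F3'H being the one without. The MYB recognition element ACCTANC was found in none of the 10 (5.55% of all regions). The region before F3H overlaps an annotated non-coding gene, AT3G51238; the other 9 overlap no gene. A match is a description of the letters and not evidence of binding.

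Per unit of transcript length, chalcone synthase was by far the most abundant of the 10 transcripts. On the authors' TPM scale the level of CHS averaged 109.7 ± 36.01 (SD, n = 15 plants), and its lowest plant, 72.5, lay above the highest FLS1 value, 54.1. FLS1 averaged 31.3 TPM and was above CHI (21.5 TPM) in 15 of 15 plants. F3H (17.9 TPM), LDOX (16.8 TPM) and DFR (14.2 TPM) followed, and F3H was above LDOX in only 8 of 15 plants, so their order was not set beyond the spread. PAP1 averaged 7.03 TPM, F3'H 3.14 TPM and UF3GT 1.45 TPM, and TT8 was last at 0.467 ± 0.123 TPM. From DFR down, each gene was above the next in 14 or 15 of the 15 plants, although the ranges of neighbours overlapped. So the flavonol branch enzyme FLS1 was above the anthocyanin branch enzyme DFR, by a ratio of normalized counts between 1.69 and 4.24 with a median of 2.73 over the 15 plants.

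No member was called different between groups after adjustment over all genes. In tissue taken whole, fewer cells of a type and less RNA per cell cannot be told apart. The test was limma on log2(normalized count + 1) with Benjamini-Yekutieli adjustment over the 21450 genes. It called 0 members of 10 and 0% of all genes in BT against BD, 0 of 10 and 0% in TT against BT, and 0 of 10 and 0% in TT against BD. The adjusted p was 1 for every member in every comparison. At an unadjusted p under 0.05 limma had 0 of 10 members in BT against BD (1.73% of all genes, 371 genes), 1 of 10 in TT against BT (9.41%, 2018 genes) and 0 of 10 in TT against BD (2.40%, 514 genes). Of the 2018 genes in TT against BT 940 were higher and 1078 lower, and quantile normalization turned this split to 1141 and 927; for TT against BD it turned 211 higher and 303 lower to 289 and 217. On recovered reads edgeR's quasi-likelihood test and the DESeq2 Wald test also called 0 genes in each comparison, with 363, 2382 and 650 genes (edgeR) and 319, 2562 and 649 genes (DESeq2) at an unadjusted p under 0.05.

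By point estimate all 10 members were lower in BT than in BD, where 49.9% of all genes were lower, with a median log2 change of -0.19 against 0.00 over all genes. Early members varied together from plant to plant, and so did late members, so the 10 directions are not 10 separate observations. CHI turned to 0.01 on the log2 scale without the 4 plants with a raised stretch, FLS1 to 0.01 without BT2, and PAP1 ranged from -0.30 to 0.16 when single plants were left out. In TT against BT, 1 member of 10 was lower (49.8% of all genes), and in TT against BD 5 of 10 (50.6%). The median log2 change of the early genes was -0.15 in BT against BD, 0.21 in TT against BT and 0.00 in TT against BD. That of the late genes was -0.39, 0.06 and -0.26. These 3 comparisons share their plants: a low set of BT plants enters the first and the second.

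**Figure D1:**
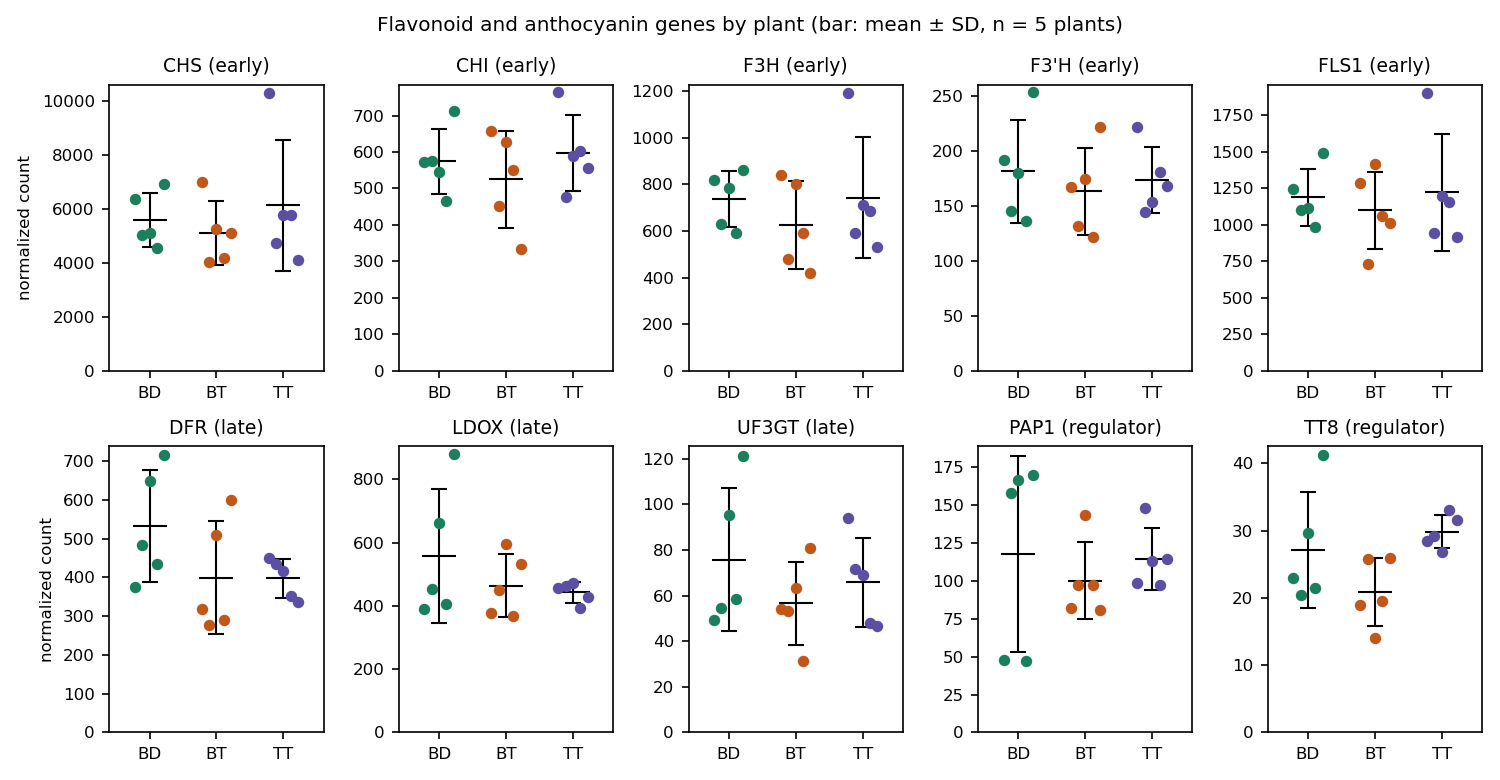
Normalized counts (vertical axes, from 0) of the 10 genes in the 5 BD, 5 BT and 5 TT plants; points are plants, bars the mean ± SD. Only for TT8 do TT (26.9 to 33.1) and BT (14.0 to 25.9) not overlap.

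**Figure D2:**
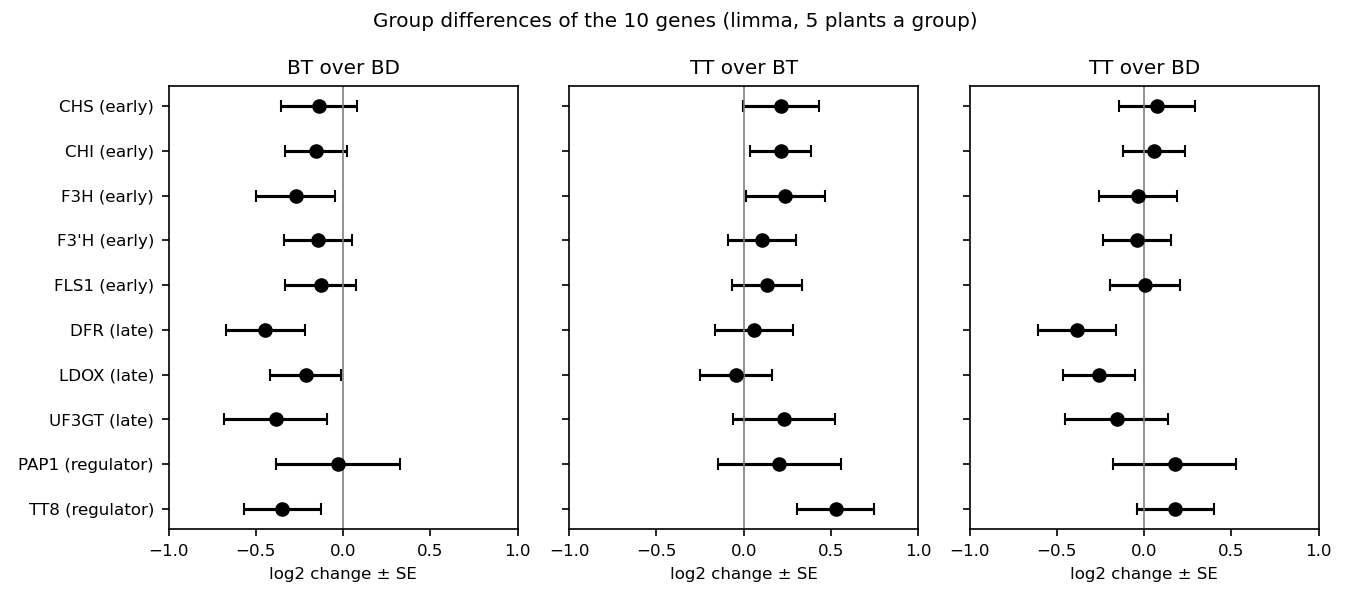
Log2 change ± SE (horizontal axis) of each gene in the 3 comparisons, from limma. DFR is at -0.45 in BT over BD and -0.39 in TT over BD, and TT8 at 0.53 in TT over BT.

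Among the early genes, CHS is the entry enzyme and its levels set the scale. Its normalized counts were 6348, 5023, 5108, 4529.6 and 6918 in BD plants 1 to 5. They were 6997, 4022, 5237, 4178 and 5110.4 in BT plants 1 to 5, and 10266, 4718, 5760.1, 5758 and 4121 in TT plants 1 to 5. The groups overlapped throughout, and plant TT1 stood alone above all others. The log2 change of CHS was -0.14 ± 0.22 (SE) in BT against BD, with an unadjusted limma p of 0.532, and 0.21 ± 0.22 in TT against BT, with p = 0.341. For TT against BD it was 0.08 ± 0.22.

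FLS1, the flavonol branch enzyme, had normalized counts of 1248, 1101, 1115, 984 and 1491 in BD. In BT it had 1286, 735, 1416, 1059.7 and 1009, and in TT 1902, 945, 1195, 1156 and 916. TT1 was again highest, BT2 was the lowest of the 15 plants, and BT3 lay close to the top of BD. FLS1 differed by -0.13 ± 0.20 in BT against BD and by 0.00 ± 0.20 in TT against BD on the log2 scale. F3H, the step before it, spanned 591 to 863 normalized counts in BD. It spanned 419 to 841 in BT and 534 to 1190.3 in TT, with TT1 on top.

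CHI lay between 467 and 712 normalized counts in BD, between 335 and 658 in BT and between 478 and 764 in TT. For F3'H the same spans were 136 to 254, 122 to 222 and 144 to 221. In plant BT5, whose chromosome 5 was raised, CHI (335) and F3H (419), both on chromosome 3, were at their lowest of the 15 plants, while F3'H on chromosome 5 was at its second highest value, 222. The part of the raised chromosome in these values was not tested. The largest early log2 change was -0.27 ± 0.22 for F3H in BT against BD (unadjusted limma p = 0.243).

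In BT against BD the late genes DFR and UF3GT had larger point estimates than any early gene, and neither was called after adjustment. DFR, the first committed step to anthocyanins, had normalized counts of 376, 483, 649.7, 434 and 716 in BD. In BT it had 317, 277, 509, 291 and 599, and in TT 449, 435, 416, 351 and 336. The BT plants split into 3 at 277 to 317 and a pair, BT3 and BT5, at 509 and 599. Of the plants with a raised stretch, only BT5 has it on chromosome 5, where DFR lies, and BT2, raised on chromosome 4, had the lowest DFR of all plants. The TT plants lay close together between 336 and 449. The group means were 532 ± 145 in BD, 399 ± 146 in BT and 397 ± 51.0 in TT (SD, n = 5 plants each). The log2 change was -0.45 ± 0.22 (SE) in BT against BD (unadjusted limma p = 0.0650) and -0.39 ± 0.22 in TT against BD (p = 0.104). Without the 4 plants with a raised stretch the first became -0.83 (p = 0.00390) and the second -0.45 (p = 0.0272), both unadjusted and both with an adjusted limma p of 1; this leaves 2 BT plants, BT1 and BT4, against 4 BD plants. With chromosome medians subtracted, which keeps all plants, BT against BD was at -0.50 (unadjusted limma p = 0.0264). The unadjusted p for BT against BD was under 0.05 in 7 of 30 alternatives and that for TT against BD in 4 of 30. Without BT5 alone the log2 change in BT against BD was -0.61.

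LDOX, which makes the anthocyanidin itself, had normalized counts of 390.0, 453, 663, 405 and 879 in BD. In BT it had 378, 449, 596, 367 and 532, and in TT 458, 465, 473, 392 and 429. BD plants 3 and 5 carried the 2 highest values of LDOX and of DFR alike, and the TT values again kept within a narrow band, with an SD on the log2 scale of 0.11 in TT against 0.51 in BD and 0.30 in BT. The log2 change was -0.22 ± 0.20 in BT against BD and -0.26 ± 0.20 in TT against BD. Without the 4 plants it was -0.60 in BT against BD (unadjusted limma p = 0.0379, adjusted p of 1), the only one of 30 alternatives under 0.05. UF3GT, which adds xylose to anthocyanins in Arabidopsis, was the least abundant enzyme, at 49.2, 54.7, 95.5, 58.4 and 121 normalized counts in BD. It was at 54.0, 53.4, 63.4, 31.2 and 81.0 in BT, and at 94.2, 71.5, 69.1, 48.0 and 46.9 in TT. The highest plant of each group was thus BD5, BT5 and TT1, and the groups overlapped; its log2 change was -0.39 ± 0.29 in BT against BD (unadjusted limma p = 0.207).

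The ratio of FLS1 to DFR, the enzymes on either side of the fork, had a median in normalized counts of 2.27 in BD (range 1.72 to 3.32), 2.78 in BT (1.69 to 4.05) and 2.87 in TT (2.17 to 4.24), with overlapping ranges. The ratio of CHS, before the fork, to DFR had a median of 10.4 in BD (range 7.86 to 16.9), 14.4 in BT (8.54 to 22.1) and 13.9 in TT (10.8 to 22.9), and the 3 ranges overlapped. The ratio of LDOX to DFR was tighter, from 0.888 to 1.62 over the 15 plants.

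Among the regulators TT8 was the lowest of the 10 genes by mean TPM, while PAP1 (7.03 TPM) was above the enzymes F3'H (3.14 TPM) and UF3GT (1.45 TPM). PAP1, the R2R3-MYB activator of the late genes, had normalized counts of 47.5, 158, 167, 46.9 and 169.9 in BD. In BT it had 82.1, 97.2, 144, 97.6 and 81.0, and in TT 98.7, 148, 113, 97.1 and 115. The BD plants thus fell in 2 sets around the other groups: BD1 and BD4 were below, and the other 3 above, every BT and TT plant. Its log2 changes were -0.03 ± 0.35 in BT against BD and 0.20 ± 0.35 in TT against BT. Its close relatives were near the floor: MYB90 (PAP2) had 0.933 to 13.2 normalized counts and MYB113 and MYB114 at most 3.81.

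TT8, the bHLH partner, was the one member whose groups did not overlap in normalized counts, and only in TT against BT. It had 19.0, 25.7, 14.0, 19.5 and 25.9 normalized counts in BT and 28.4, 29.2, 26.9, 33.1 and 31.6 in TT, while BD had 22.9, 20.4, 29.6, 21.5 and 41.2. On this scale every TT plant was above every BT plant, and BD overlapped both. On the TPM scale TT and BT overlapped, with TT3 at 0.493 and BT5 at 0.513. In normalized counts, groups without overlap were found for 1 of 10 members in TT against BT, against 1.62% of all genes. They were found for 0 of 10 in BT against BD (0.186% of all genes) and for 0 of 10 in TT against BD (0.592%). The log2 change of TT8 in TT against BT was 0.53 ± 0.22 (unadjusted limma p = 0.0305, adjusted p of 1), and 0.60 without the 4 plants with a raised stretch (p = 0.0432). The unadjusted p was under 0.05 in 23 of 30 alternatives, with edgeR at 0.0447 and DESeq2 at 0.0556. These 23 include leaving out each BD plant in turn, which cannot change the difference between TT and BT and left it at 0.53. Without the plants numbered 1 the log2 change was 0.52 (unadjusted limma p = 0.0796). At 15 to 33 reads per plant, counting alone gives an SD of 0.29 on the log2 scale, close to the 0.32 seen between plants of a group when pooled over the groups. By group the SD was 0.41 in BD, 0.35 in BT and 0.115 in TT, so the TT plants lay closer together than counting alone gives.

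**Figure D3:**
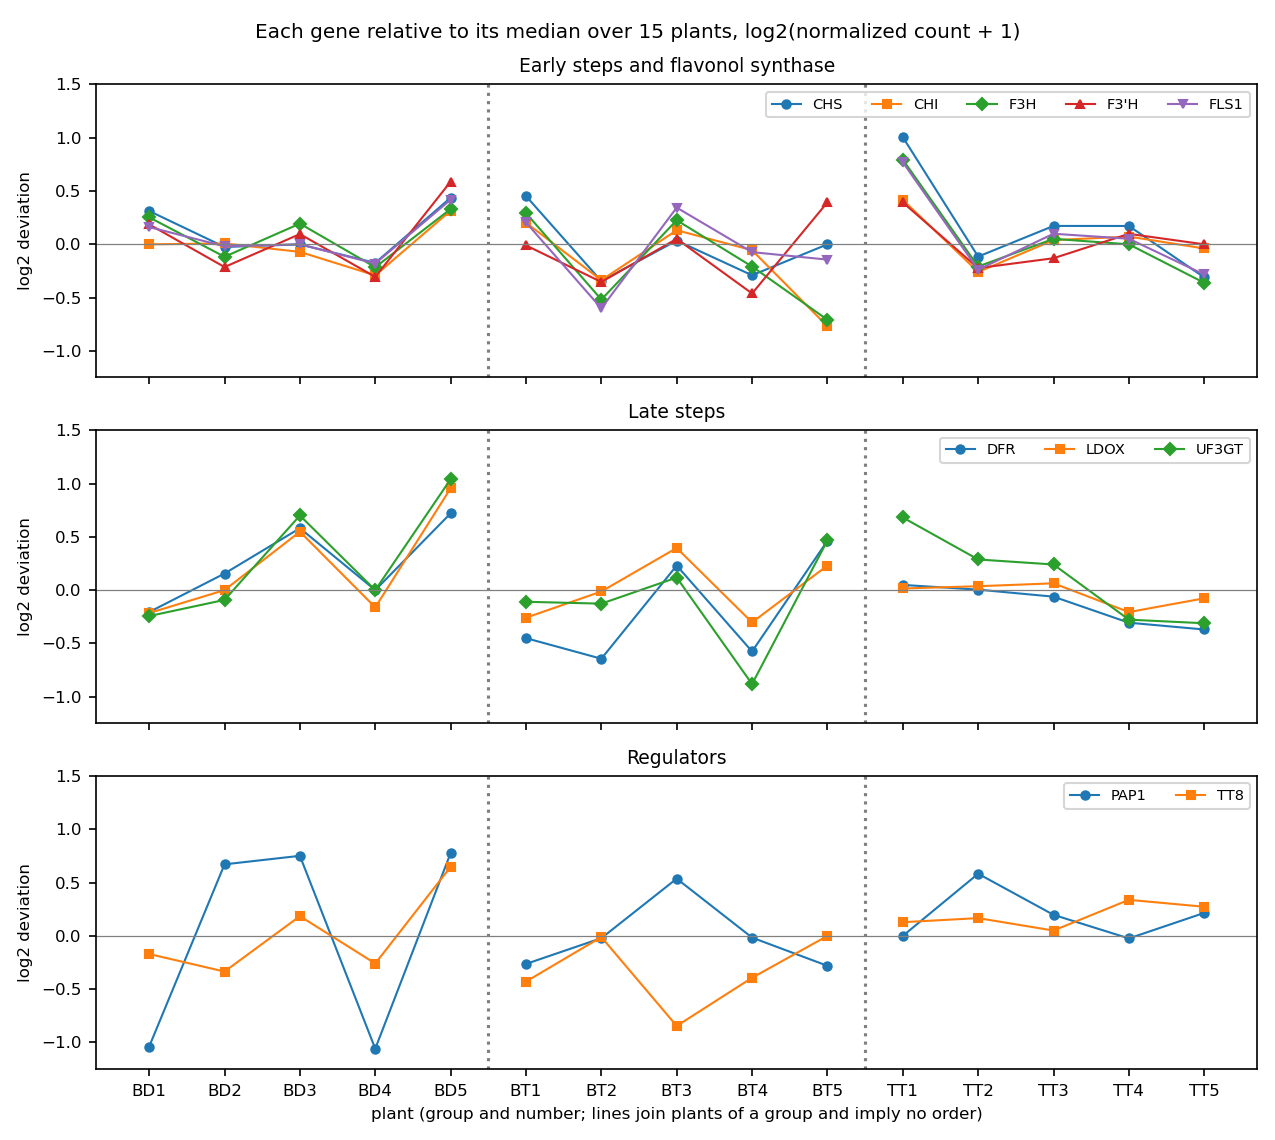
Log2 deviation of each gene from its own median over the 15 plants (vertical axis), by plant, for early genes, late genes and regulators. In TT1 the 5 early genes are 0.39 to 1.01 above their medians, while DFR and LDOX are within 0.05 of theirs and UF3GT is 0.68 above.

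Between plants, early genes moved with early genes and late genes with late genes. Over the 15 plants the Pearson r of the 3 late pairs was 0.82 to 0.85, that of the 10 early pairs 0.28 to 0.89 with a median of 0.72, and that of the 15 early-late pairs 0.01 to 0.70 with a median of 0.29. All values of a plant come from 1 library set, so they share its depth and normalization. Against that background, the median r of DFR with all other genes was 0.00, and 0.0187% of them passed 0.8; for CHS the median was 0.00 and the share 0.0140%. After subtracting group means the medians were 0.84, 0.72 and 0.29, and without the 4 plants with a raised stretch 0.88, 0.83 and 0.36. Without the 3 plants numbered 1 the early-late median was 0.60, near the early-early median of 0.67, so the separation of early from late leaned on those plants.

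DFR was compared with each of the other 9 members, by a 2-sided permutation test with 100000 resamples; the p-values are unadjusted for the 9 relations. With LDOX the Pearson r was 0.85 (permutation p = 2e-05) and Spearman's rho 0.84 (permutation p = 0.0001), and LDOX ranked 2 of 21447 genes by r with DFR. With UF3GT r was 0.83 (permutation p = 0.00011) and rho 0.85 (permutation p = 0.00015), rank 3 of 21447. Without the plants farthest from the median of DFR, BD5 and BT2, r was 0.89 with LDOX and 0.81 with UF3GT. F3'H followed with r = 0.64 (permutation p = 0.0107) and rho = 0.59 (permutation p = 0.0225), but r fell to 0.42 (permutation p = 0.156) without those plants, so that relation rests on them.

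The other early genes did not pass this test with DFR. FLS1 had r = 0.40 and rho = 0.38 (permutation p = 0.147 and 0.163), CHS r = 0.28 and rho = 0.34 (permutation p = 0.317 and 0.223), F3H r = 0.22 and rho = 0.31 (permutation p = 0.425 and 0.265), and CHI r = 0.01 and rho = 0.14 (permutation p = 0.984 and 0.610). Without BD5 and BT2 these r were 0.06, 0.03, -0.05 and -0.38. Without the 3 plants numbered 1, however, r with DFR was 0.69 for CHS and 0.63 for FLS1, and both then had a permutation p under the threshold (0.0122 and 0.028). Of the regulators, PAP1 stood between these early genes and the late ones, with r = 0.42 and rho = 0.51 (permutation p = 0.116 and 0.0543). TT8 lay among these early genes, with r = 0.27 and rho = 0.26 (permutation p = 0.333 and 0.354). Without BD5 and BT2 the r of PAP1 and TT8 were 0.33 and 0.05. With group means subtracted PAP1 had r = 0.52 (permutation p = 0.0472) and rho = 0.49 (permutation p = 0.0697) with DFR. That permutation moved plants across groups and made no allowance for the subtracted means, so its p-values may be too small.

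**Figure D4:**
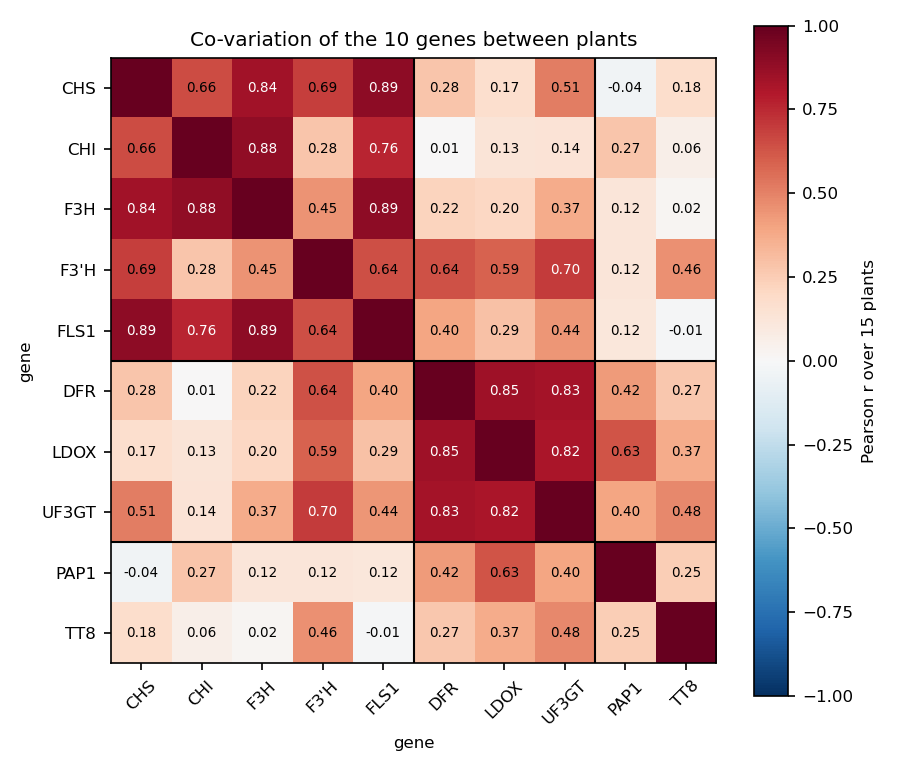
Pearson r over the 15 plants for each pair of the 10 genes, colour from -1 to 1; lines part early genes, late genes and regulators. The late block holds 0.82 to 0.85, and the early-late block 0.01 to 0.70.

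Within the early block, CHS and FLS1 were closest (r = 0.89, the same to 2 decimals as F3H with FLS1), FLS1 ranking 1 of 21447 genes by r with CHS and F3H ranking 3 (r = 0.84). F3'H was the loosest early gene: its r with CHI was 0.28, and 0.72 without the 4 plants with a raised stretch. Over all plants F3'H had r of 0.69 with CHS, 0.64 with FLS1 and 0.45 with F3H, and 0.59 to 0.70 with the 3 late genes. Without the 4 plants its r was 0.72 to 0.73 with the other early genes and 0.57 (DFR), 0.60 (LDOX) and 0.71 (UF3GT) with the late ones. Of the regulators, PAP1 had its highest r with LDOX (0.63) and r of -0.04 with CHS.

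**Figure D5:**
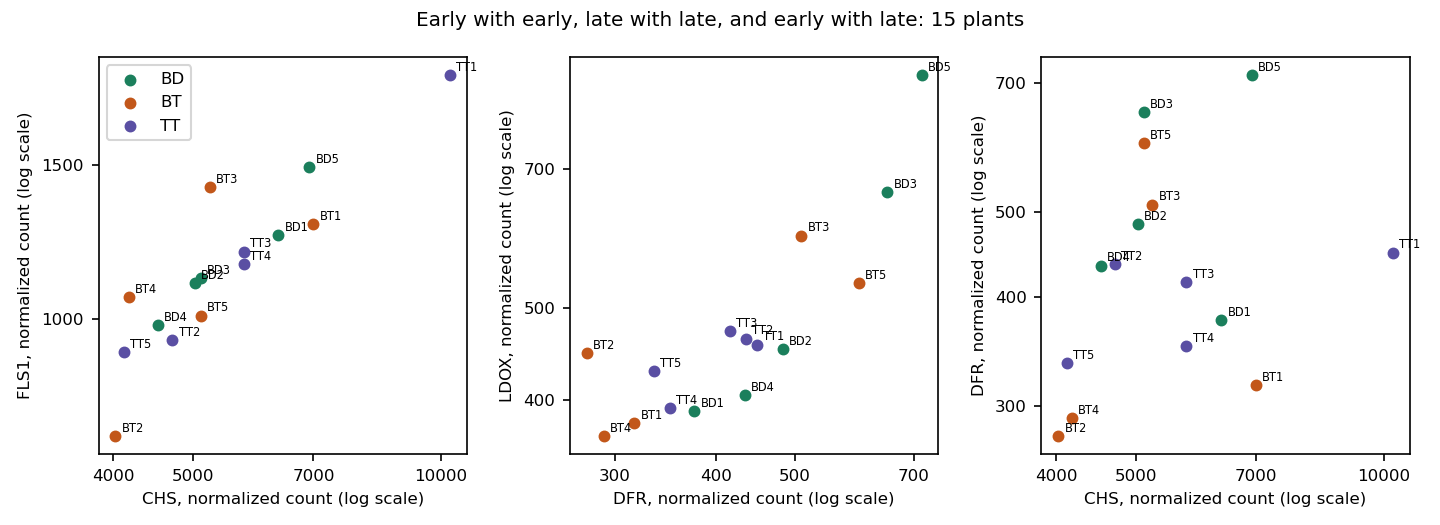
Normalized counts (log scales) of CHS against FLS1, DFR against LDOX and CHS against DFR in the 15 plants, coloured by group. The first and second pair follow a line (r = 0.89 and 0.85), and the third does not (r = 0.28), with TT1 at 10266 CHS counts and only 449 DFR counts.

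Outside the 10 members, 16243 genes averaged 50 normalized counts or more, and these were ranked by their r with CHS, the entry enzyme, and with DFR, the first of the late enzymes. The nearest to CHS was CHIL (AT5G05270), a chalcone isomerase-like protein that helps CHS make its product, with r = 0.87. It was followed by 4CL3 (AT1G65060), the coumarate-CoA ligase that feeds the pathway, with r = 0.78, and SCL30A (AT3G13570), a splicing factor, with r = 0.76. The nearest to DFR was GSTF12 (AT5G17220), the glutathione S-transferase needed to bring anthocyanins into the vacuole, with r = 0.90, above every member. HAB2 (AT1G17550, r = 0.80), a protein phosphatase, and AT3G26000 (r = 0.78) came next. The r after subtracting group means was 0.87 for CHIL and 0.90 for GSTF12. GSTF12 had 351 to 793 normalized counts, and BD5 and BD3 were its highest plants, as they were for DFR and LDOX.

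The spread between plants of a group was above that of the typical gene for each of the 9 members that reach a mean of 50. The within-group SD on the log2 scale ran from 0.30 (CHI) to 0.61 (PAP1), against a median of 0.26 over 16252 genes with that mean. PAP1 stood at the 93.1 percentile and UF3GT at the 88.5, and the enzymes CHS, F3H and DFR at 78.0, 79.9 and 79.5. Counting error was small beside it for CHS (0.02) and DFR (0.07) and larger for UF3GT (0.19). DFR and LDOX varied less within TT (SD 0.19 and 0.11) than within BD (0.39 and 0.51), while CHS varied more within TT (0.50 against 0.25); these differences in spread were not tested.

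The wider pathway was read the same way. None of the genes of the lists was called by limma after adjustment in any comparison. Of the 8 general phenylpropanoid genes, which make the coumaroyl-CoA, 7 were higher in TT than in BT (median log2 change 0.20) and 1 had an unadjusted p under 0.05: 4CL3, with a log2 change of 0.47 ± 0.20 (limma, p = 0.0335), which became 0.11 (p = 0.619) without the 4 plants with a raised stretch. Over all genes 10767 of 21450 were higher in TT and 9.41% had an unadjusted p under 0.05. Genes of a list can vary together between plants, so these counts and those that follow need not be of separate observations. Of the 7 decoration and transport genes of anthocyanin, 6 were lower in BT than in BD (median -0.22) and 4 higher in TT than in BT (0.01). Among them SCPL10 (AT2G23000), a sinapoyltransferase acting on anthocyanins, had a log2 change of 0.48 ± 0.23 in TT against BT (unadjusted limma p = 0.0499), and 0.47 (p = 0.0934) without the 4 plants. The 11 other early and flavonol genes had medians of -0.03, -0.06 and -0.04 in BT against BD, TT against BT and TT against BD, with none at an unadjusted p under 0.05. Of the 6 activators MYB113 alone had an unadjusted p under 0.05, at -1.08 ± 0.42 in TT against BD, from counts of 0 to 3.07, and at -0.89 (p = 0.0811) without the 4 plants.

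Summed over the list, the 9 repressors had 4596 to 9699.9 normalized counts per plant and the 6 activators 913 to 1644, but single genes overlapped: the activator TTG1 (mean 881) was above the repressors MYB4 (384), CPC (31.1) and others. MYBL2, a small MYB that blocks the MYB-bHLH complex, had 1367 to 3998 normalized counts, and lies in the distal part of chromosome 1 that was raised in BD4, BT3 and BT5. Of these plants BD4 was the lowest BD plant for MYBL2 (1678), and the highest of all plants was BT2 (3998), where the stretch was not raised. Its log2 change was 0.49 ± 0.23 in BT against BD (unadjusted limma p = 0.0527) and -0.46 ± 0.23 in TT against BT (p = 0.0665). Without the 4 plants the values were 0.19 (p = 0.569) and -0.27 (p = 0.421). The 9 repressors had medians of -0.05, -0.08 and -0.07 in the order above, with none at an unadjusted p under 0.05. Of 12 light and UV-B genes 11 were higher in BT than in BD, by a median log2 change of 0.05, where 10745 of all 21450 genes were higher. Of the 7 genes of the seed coat proanthocyanidin branch 2 were listed, the proton pump AHA10 at up to 21.6 normalized counts and the transporter TT12 at up to 7.49.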

How the data were processed

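RNA of single plants was sequenced as 75 bp single reads from poly(A) libraries, 4 technical replicates per plant, 60 samples in all. The labels and methods give trimming with Trimmomatic 0.38, mapping with STAR 2.6.0c to the EnsemblGenomes release 36 genome (TAIR10), keeping reads with up to 50 places, quantification with Salmon 0.11.3 and DESeq2 1.22. The authors kept genes counted in at least 3 of the 5 plants of any group, and all 10 members passed. The deposited signal values are the authors' counts divided by size factors, here called normalized counts, with 1 column per plant. The authors also deposited TPM, which is scaled by transcript length, and rlog values, which are moderated log2 counts. Whole reads came back from the normalized counts for 100% of values within 0.001. Near-identical paralogs may share reads, the libraries carry no strand, and antisense genes cannot be told apart.

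The members and the gene lists were chosen with earlier results of these data known. The main test was limma 3.58.1 (R 4.3.3) on log2(normalized count + 1) with a variance trend, all 15 plants, group as the only term, 2-sided, Benjamini-Yekutieli adjusted p under 0.05 over the 21450 genes, since the files hold no raw counts. For low genes the added 1 makes such a change look smaller than it is. The alternatives were edgeR 4.0.16 and DESeq2 1.42.0 on the reads, pseudocounts of 0.1 and 10, a mean of at least 10, log2(TPM + 0.1), rlog, quantile normalization, no trend, 2 groups only, array weights, the replicate number as a block, chromosome medians subtracted, and leaving out plants. All members are named; list genes with an unadjusted p under 0.05 come first, and for likeness the 3 genes with the highest r. Upstream regions come from RefSeq TAIR10.1, while the files carry no coordinates. The replicates are separate plants, so p-values measure the spread between single plants. Whether all plants were grown at the same time is not given.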

Additional observations from a re-analysis of the deposited data

Results flagged for a closer look

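In 4 of the 30 sets of 5 plants (10 genes in 3 groups) 1 plant lay far from the other 4 by Dixon's criterion. The criterion was applied to untransformed normalized counts and not on the log2 scale used elsewhere, where high plants stand out less. Chance gives about 1 set in 20 only for separate sets of normally spread values. In 3 of the 4 sets it was plant TT1, and the genes were early. CHS was at 10266 normalized counts with the next TT plant at 5760.1, and F3H at 1190.3 with the next at 711. FLS1 was at 1902 with the next at 1195. These genes vary together between plants, so the 3 sets are not separate observations. On the log2 scale CHS deviated from its median by 1.01 in TT1, 0.17 in TT3 and -0.31 in TT5. TT1 was also the highest of the 15 plants for CHIL (1088), ELIP1 (1074) and MYB111 (260.5). The fourth was PAP1 in BT3, at 143.7 normalized counts with the next BT plant at 97.6.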

How the results depend on the processing

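The 3 counts of 0 called genes were 0 under each of the 30 alternatives, Benjamini-Hochberg adjustment included. Of 450 member log2 changes under 15 settings other than single plants left out, 25 changed sign, none of them called; the cause was not tested. With array weights CHI was at -0.00099 in TT against BT and -0.098 in TT against BD, FLS1 at -0.023 and -0.15, CHS at -0.090 in TT against BD and LDOX at 0.049 in TT against BT. Without the 4 plants with a raised stretch CHI was at 0.011, -0.028 and -0.017 in BT against BD, TT against BT and TT against BD, LDOX at 0.25 in TT against BT, and FLS1 and PAP1 at -0.061 and -0.096 in TT against BD. Without the plants numbered 1, TT against BD was -0.080 for CHS, -0.037 for CHI, -0.15 for FLS1 and -0.042 for PAP1, and DFR in TT against BT was -0.052. With edgeR and DESeq2, DFR was at -0.010 and -0.0043 in TT against BT, F3H at 0.0039 and 0.010 and PAP1 at -0.032 and -0.033 in TT against BD. TPM gave -0.0042 for FLS1 in TT against BD, and chromosome medians subtracted 0.010 for LDOX in TT against BT.

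Leaving out single plants, the log2 changes that crossed 0 ranged in BT against BD from -0.23 to 0.0068 for FLS1 and -0.30 to 0.16 for PAP1. In TT against BT they ranged from -0.039 to 0.23 for FLS1, -0.053 to 0.22 for DFR and -0.12 to 0.053 for LDOX. In TT against BD they ranged from -0.13 to 0.20 for CHS, -0.039 to 0.13 for CHI, -0.22 to 0.070 for F3H, -0.14 to 0.087 for F3'H, -0.17 to 0.095 for FLS1, -0.30 to 0.033 for UF3GT and -0.096 to 0.36 for PAP1. Of the r with DFR, those of LDOX (0.80 to 0.90) and UF3GT (0.77 to 0.87) kept a permutation p under 0.05 in each; F3'H ranged from 0.50 to 0.68 and was past 0.05 without BD5, and CHI from -0.20 to 0.35. Without the plants numbered 1, r with DFR was 0.69 for CHS and 0.63 for FLS1, both then under 0.05. The r of PAP1 came under 0.05 with group means subtracted (0.52), though its rho did not. It also came under 0.05 without the 4 plants (0.65), where F3'H was past it (0.57). Without the plants farthest from the median of DFR, r was 0.42 for F3'H, -0.38 for CHI and -0.051 for F3H, and CHI was at -0.068 with group means subtracted.

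The replicate numbers were not taken as pairing the plants, because in each comparison only 3 of 5 same-numbered pairs had a correlation of deviations over 0.1, with -0.70 the lowest. The pairs numbered 1 (0.57, 0.44 and 0.34) and 3 (0.48, 0.17 and 0.11) were over it in all 3 comparisons. With the number as a replicate block 0 genes were called in each comparison, with 372, 2035 and 629 genes at an unadjusted p under 0.05 (limma), and DFR in BT against BD was at -0.45 with an unadjusted limma p of 0.0422. Depth limits TT8, at 15 to 33 reads per plant.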

Other observations

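SCPL10, named after its values were seen, followed PAP1 across the plants. In BD1 and BD4, where PAP1 was at 47.5 and 46.9 normalized counts, SCPL10 was at 551 and 558, and in the other BD plants it was at 1039 to 1267. Over the 15 plants the Pearson r was 0.82 (permutation p = 6e-05) and Spearman's rho 0.85 (permutation p = 0.00015), rank 14 of 21447 genes by r with PAP1; r was 0.82 without the plants farthest from the median of PAP1 and 0.71 over the BT and TT plants alone. This is 1 relation picked from many and unadjusted.

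MYB111, a flavonol MYB factor, was highest in the plant numbered 1 of each group, at 226 normalized counts in BD, 212 in BT and 260.5 in TT, and no other plant passed 179. This was picked after the values were seen and is not particular to MYB111. The general phenylpropanoid genes PAL1 and 4CL3, and AT1G06000 of the other early and flavonol genes, were also highest in the plant numbered 1 of each group.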
